A study of Mus musculus with 3 samples.

Results

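The genes described here are Igf1, its receptor gene Igf1r and the binding protein genes Igfbp2, Igfbp3, Igfbp4, Igfbp5, Igfbp6 and Igfbp7, chosen by symbol as 8 of the 53465 genes in the tables. They were followed in whole ovaries of C57BL/6 female mice, with no mutation or treatment named, at embryonic day 16.5 (ED16.5; the sample title says 17), postnatal day 7 (PND7) and postnatal day 14 (PND14). Each age was 1 droplet single-cell library made with a 3′ kit, in which a molecular identifier (UMI) marks each captured mRNA, so UMIs and not reads were counted. The labels do not say how many animals gave each library. The series concerns the change from oestrogen receptor α to oestrogen receptor β in the granulosa lineage, and its labels name no question about the growth factor genes.

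With 1 library per age no test of an age difference was possible and there is no replicate check. Levels are UMIs summed over the cells of a class and scaled to 1000000 UMIs (CPM), with exact Poisson 95% intervals, and ratios with exact conditional 95% intervals. These intervals cover counting error only. Genes with at least 10 UMIs in both sums together were compared, and 2 sums are called apart where the ratio of (CPM + 10) was at least 2-fold, that is 1 on the log2 scale.

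The libraries held 8994085, 8743797 and 9065595 UMIs at ED16.5, PND7 and PND14, and 456, 509 and 583 cells were kept, with medians of 15090.5, 12224 and 11435 UMIs per cell. No cell barcode was shared between libraries. The cells formed 21 clusters, of which 18 were named after the marker list that stood out in them, always with the ending "-like" because a marker gate is not an identity. Granulosa-like cells numbered 76 at ED16.5 (cluster 10), 88 at PND7 (84 of them in cluster 7) and 94 at PND14 (87 of them in cluster 8), so different clusters hold most of the class at each age. Stroma-like cells numbered 104 at ED16.5 (cluster 5), 205 at PND7 (143 in cluster 2) and 218 at PND14 (182 in cluster 1). Endothelium-like cells numbered 19, 21 and 27 at the 3 ages (cluster 11), and theca-like cells 40, at PND14 only (cluster 15). No class of theca-like cells was found at ED16.5 or PND7. The own markers were present in each class: 18, 20 and 20 of 20 granulosa markers were detected in granulosa-like cells, summing to 5503, 7747 and 10432 CPM, and 12 of 12 stroma markers in stroma-like cells, summing to 5446, 11204 and 8889 CPM. Clusters 3 (led by cell division genes such as Aurkb), 4 (led by Dleu7, Enpep and Plac8) and 17 (led by Ptprcap and the T cell receptor gene Trbc1, among others) stayed unnamed, with 29, 127 and 144 cells at the 3 ages. Cluster 3 had 4 of 12 theca markers at least 2-fold up, the most of any list, but none among its 10 leading genes. Cluster 4 had no marker of any list 2-fold up, and Hhip was among its 10 leading genes. Whether either holds cells of the theca lineage was not tested.

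Insulin-like growth factor 1 is a secreted peptide that acts through the receptor tyrosine kinase encoded by Igf1r, which signals through insulin receptor substrates, PI3K and AKT. In the ovary it works beside follicle-stimulating hormone on the growth of granulosa cells, the somatic cells that surround the oocyte, and in mice Igf1 is known from granulosa cells of growing follicles. The binding proteins hold the ligand in tissue fluid, and proteases that cleave them release it. Igfbp2 and Igfbp6 products bind the related ligand IGF2 with preference, the Igfbp4 product is an inhibitor cleaved by the protease PAPP-A, the Igfbp5 product attaches to extracellular matrix, the Igfbp3 product is the main carrier in blood, and the Igfbp7 product is a distant relative that binds the ligands weakly and is known from blood vessels.

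Each of the 8 symbols stood on 1 entry of the tables. On the GRCm38 build, in the GENCODE M21 annotation, Igf1 lies at chr10:87858265-87937042 on the plus strand, overlapping its antisense gene Igf1os, and Igf1r at chr7:67952827-68233668 on the plus strand. Igfbp2 (chr1:72824503-72852474, plus strand) and Igfbp5 (chr1:72857932-72874884, minus strand) are neighbours whose 3′ ends face each other across 5458 bp. Igfbp3 lies at chr11:7206086-7213923 on the minus strand, 3540 bp from Igfbp1, and Igfbp4 at chr11:99041244-99054392 on the plus strand. Igfbp6 lies at chr15:102144362-102149511 on the plus strand. Igfbp7 (chr5:77349240-77408041, minus strand) overlaps Polr2b and Gm34648 on the other strand. How the counting used strand is not given in the sources used here, so the Igf1 and Igfbp7 counts are uncertain to the extent that their overlapping partners share reads.

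The promoter windows of 4 binding protein genes are shown because the results turn on them: Igfbp2 and Igfbp5 are neighbours of which Igfbp2 was higher in granulosa-like than in stroma-like cells at every age and Igfbp5 at PND14 alone, and Igfbp6 and Igfbp7 were higher together in postnatal stroma. The sequences are RefSeq's for GRCm38.p6, from 250 bases before to 50 bases after the annotated start, read 5′ to 3′ on the gene's strand. All 8 genes matched the table of 32851 windows. The windows are chr1:72824230-72824529 on the plus strand for Igfbp2 (the first of its 2 windows), chr1:72874816-72875115 on the minus strand for Igfbp5, chr15:102143936-102144235 on the plus strand for Igfbp6 and chr5:77407996-77408295 on the minus strand for Igfbp7. RefSeq and GENCODE starts can differ: the Igfbp6 window ends before the GENCODE start of the gene at 102144362. Of the windows not printed, that of Igf1r ends at 67952306, before its GENCODE start, and that of Igf1 begins at 87860861, past its GENCODE start. Capitals mark matches to the motifs named after them, on either strand.
Igfbp2 promoter: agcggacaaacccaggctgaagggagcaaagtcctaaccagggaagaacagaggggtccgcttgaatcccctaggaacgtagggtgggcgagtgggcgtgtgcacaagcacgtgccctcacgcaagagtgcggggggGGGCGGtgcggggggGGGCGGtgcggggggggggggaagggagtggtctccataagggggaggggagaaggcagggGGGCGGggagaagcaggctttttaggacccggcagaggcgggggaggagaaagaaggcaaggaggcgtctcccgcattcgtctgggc
Igfbp5 promoter: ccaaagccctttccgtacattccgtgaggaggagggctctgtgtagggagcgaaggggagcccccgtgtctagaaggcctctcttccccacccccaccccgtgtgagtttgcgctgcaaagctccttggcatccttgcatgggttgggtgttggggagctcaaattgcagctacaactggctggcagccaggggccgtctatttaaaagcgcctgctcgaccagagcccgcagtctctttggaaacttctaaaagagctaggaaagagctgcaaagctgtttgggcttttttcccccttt
Igfbp6 promoter: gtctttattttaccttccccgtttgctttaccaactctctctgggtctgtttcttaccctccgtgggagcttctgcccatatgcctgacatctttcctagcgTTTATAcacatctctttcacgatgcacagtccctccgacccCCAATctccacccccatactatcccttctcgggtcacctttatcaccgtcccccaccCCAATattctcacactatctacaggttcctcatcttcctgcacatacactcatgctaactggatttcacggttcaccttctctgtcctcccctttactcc
Igfbp7 promoter: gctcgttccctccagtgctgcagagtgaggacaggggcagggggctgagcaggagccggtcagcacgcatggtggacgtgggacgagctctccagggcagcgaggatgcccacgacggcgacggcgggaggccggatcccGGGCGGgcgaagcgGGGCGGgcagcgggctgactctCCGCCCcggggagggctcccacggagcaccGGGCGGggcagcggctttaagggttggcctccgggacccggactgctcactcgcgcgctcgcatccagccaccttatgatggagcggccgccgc

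On both strands 5 motifs were searched. They were TATAAA, known as the TATA box, then CCAAT, a common upstream box, then GGGCGG, which is the core of the GC box, then AGGTCA, the hexamer that many nuclear receptors bind, and last the palindromic oestrogen response element, which can overlap that hexamer. The Igfbp2 window held GGGCGG 3 times, with first bases at −113, −98 and −37 from the start, and the Igfbp7 window held it 4 times, at −110, −96, −74 and −44. GGGCGG stood in 35.66% of all windows. The Igfbp6 window held no GGGCGG but had TATAAA in reverse at −148, which 13.62% of all windows held, and CCAAT at −107 and −50, which 37.41% held. None of the 5 motifs was in the Igfbp5 window. In base composition, 67% of the printed Igfbp2 window and 56.33% of the Igfbp5 window were G or C. The values were 73.33% for Igfbp7, 49.67% for Igfbp6 and a median of 52.67% over all windows. The second Igfbp2 window, not printed here, had 57.33% and none of the 5 motifs. The differences between the neighbours in GGGCGG and base composition thus hold for the printed Igfbp2 window only. AGGTCA, which 16.26% of all windows held, was in the windows of Igf1 (at −161) and Igf1r (in reverse, at −86), and the palindromic element, in 0.07001% of all windows, was in none of the 8. A match is a description of letters and not a binding site, and a missing match says only that these letters are not in this window.

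Across the 3 ages the ligand was higher at PND7 than before or after in both large classes, and the receptor was higher in granulosa-like than in stroma-like cells after birth but not before. Igfbp5 was highest in stroma-like cells at ED16.5 and in surface epithelium-like and granulosa-like cells at PND14. Igfbp6 and Igfbp7 had low embryonic and high postnatal levels in stroma-like cells, while Igfbp4 in granulosa-like cells was lower after birth. Igfbp2 was highest in surface epithelium-like cells at every age, with granulosa-like cells next or close to next.

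**Figure D1:**
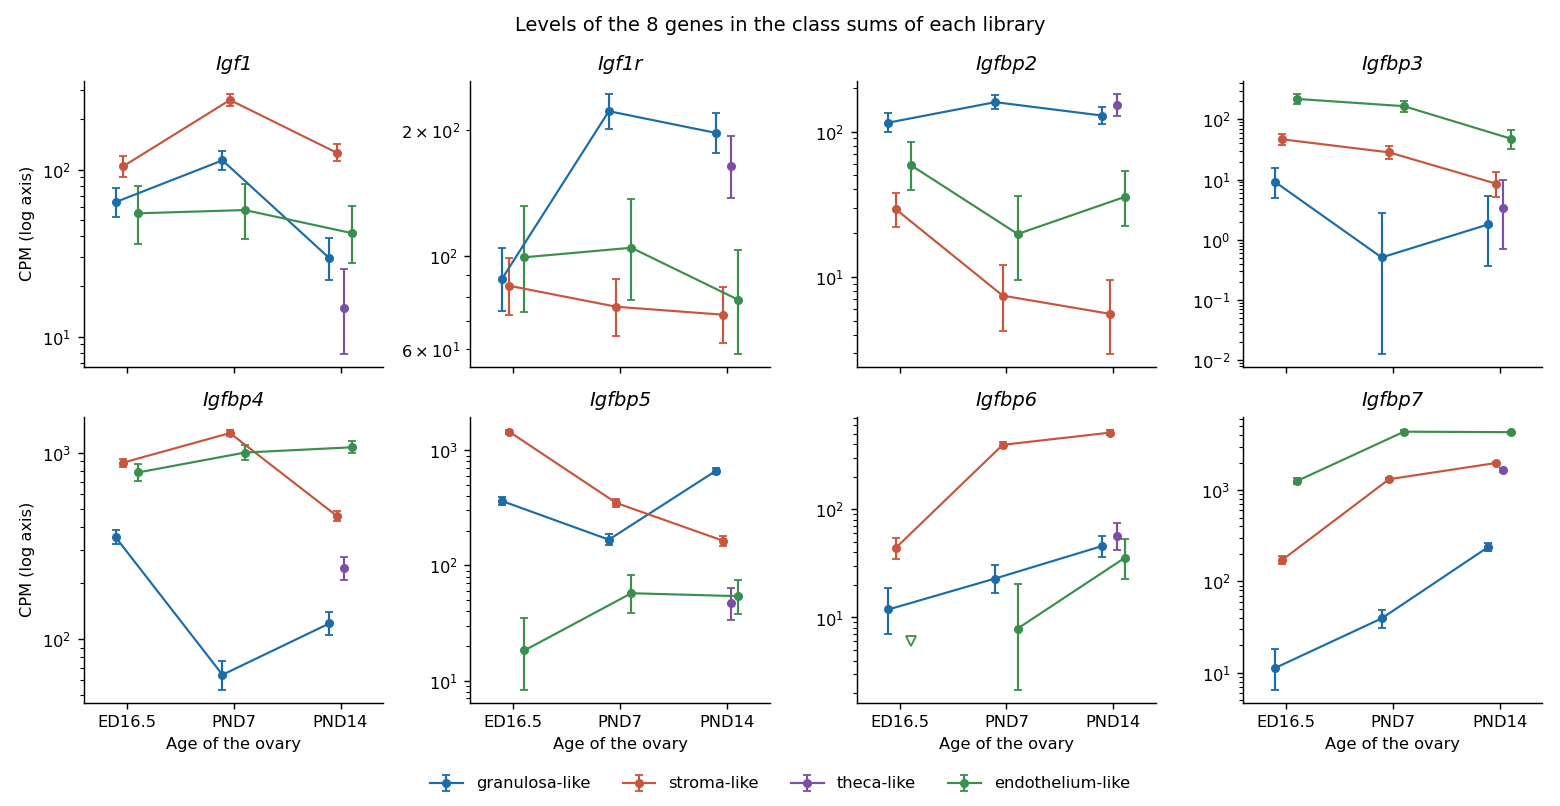
Level of each gene (CPM, log axis) by age in granulosa-like, stroma-like, theca-like (PND14 only) and endothelium-like cells. Points are the summed UMIs of 1 library scaled to CPM, bars are exact Poisson 95% intervals, and the open triangle marks the level of 3 UMIs where none was counted; the Igfbp5 lines of granulosa-like and stroma-like cells cross between PND7 (167 and 348 CPM) and PND14 (661 and 164 CPM).

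Igf1 is the ligand. In granulosa-like cells it had 63.9, 114 and 29.5 CPM at ED16.5, PND7 and PND14, from 97, 223 and 49 UMIs. In stroma-like cells it had 105, 261 and 126 CPM at the same ages, and in endothelium-like cells 54.8, 57.3 and 41.7 CPM. The PND7 library was the highest of the 3 in both of the large classes. Its PND7 over ED16.5 ratio was 1.78 (interval 1.40 to 2.28) in granulosa-like cells, under the 2-fold mark on the log2 scale at 0.74, and 2.50 (2.12 to 2.95) in stroma-like cells. Between PND14 and PND7 it was 3.85-fold lower (2.82 to 5.36) in granulosa-like cells and 2.07-fold lower (1.79 to 2.39) in stroma-like cells, the second just under the mark at a log2 ratio of −0.99. Theca-like cells at PND14 had the lowest level of the 4 classes, 14.9 CPM from 13 UMIs. Among the smaller classes, surface epithelium-like cells led at ED16.5 with 268 CPM (73 UMIs in 10 cells) and immune-like cells led at PND7 with 320.3 CPM (99 UMIs in 16 cells). At PND7 all 12 stroma markers were detected in the immune-like cells, at a summed 4048 CPM or 36.1% of the stroma-like level, and in smooth muscle-like cells at 74.4%, and their part in these Igf1 levels was not tested. At PND7 the intervals of the ratios between neighbours in the order immune-like, smooth muscle-like (302 CPM) and stroma-like each included 1, and so did that between stroma-like and smooth muscle-like cells (110.2 CPM) at PND14.

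Igf1r encodes the receptor. It had 88.3, 221 and 197 CPM in granulosa-like cells (134, 434 and 326 UMIs), 85.0, 75.8 and 72.6 CPM in stroma-like cells and 99.4, 105 and 78.8 CPM in endothelium-like cells. At ED16.5 the intervals of the ratios between neighbours in the order endothelium-like, granulosa-like, surface epithelium-like and stroma-like all included 1, so the 4 classes could not be ordered. At PND7 granulosa-like cells stood first, 2.51-fold (2.06 to 3.07) above their ED16.5 level and 2.92-fold (2.43 to 3.52) above stroma-like cells of the same library. The PND14 over PND7 ratio in granulosa-like cells was 0.888 (0.767 to 1.03), and the lead over stroma-like cells at PND14 was 2.71-fold (2.24 to 3.28). Theca-like cells at PND14 had 164 CPM, and the interval of the granulosa-like over theca-like ratio, 0.984 to 1.47, included 1. Germ cell-like cells had 36.9 CPM at ED16.5 and 166 CPM at PND7, the second from 12 cells with a median of 81812.5 UMIs each.

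Surface epithelium-like cells, which cover the ovary, had the highest level of Igfbp2, whose product prefers IGF2, at every age with 676, 598 and 954 CPM in 10, 15 and 12 cells. Granulosa-like cells had 115, 159.6 and 129 CPM (175, 313 and 214 UMIs), and theca-like cells at PND14 had 153 CPM, with an interval of their ratio to granulosa-like cells (0.9503 to 1.48) that included 1. Stroma-like cells had 29.2 CPM at ED16.5 and only 7.44 and 5.58 CPM after birth, from 16 and 13 UMIs. The granulosa-like over stroma-like ratio was 3.95 (2.90 to 5.45) at ED16.5, 21.5 (13.0 to 38.0) at PND7 and 23.1 (13.2 to 44.1) at PND14. Its width after birth comes from the few stroma UMIs. In granulosa-like cells Igfbp2 was 1.38-fold (1.15 to 1.67) higher at PND7 than at ED16.5 and 1.24-fold (1.04 to 1.48) lower at PND14 than at PND7. At ED16.5, 65 of the 76 granulosa-like cells lacked both Upk3b and Upk1b UMIs (2 genes of the ovarian surface), and in these 65 cells Igfbp2 was at 89.8 CPM. Endothelium-like cells had 58.8, 19.8 and 35.5 CPM, and 18 of their 29 UMIs at ED16.5 and 15 of 23 at PND14 came from 1 cell each.

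Igfbp5, the neighbour of Igfbp2, had 362, 167 and 661 CPM in granulosa-like cells (550, 328 and 1097 UMIs) and 1443, 348 and 164 CPM in stroma-like cells (2716, 749 and 381 UMIs). Stroma-like cells were thus highest in the embryo and lower at each later age, while granulosa-like cells were highest at PND14. The granulosa-like level was 3.98-fold lower (3.63 to 4.37) than the stroma-like one at ED16.5, 2.08-fold lower (1.83 to 2.38) at PND7 and 4.04-fold higher (3.59 to 4.55) at PND14. Surface epithelium-like cells exceeded both after birth, with 1165, 1841 and 6819 CPM over the ages. At PND14, 544 of their 2194 UMIs were in 1 cell, and the other cells had 5686 CPM. Endothelium-like cells had 18.3, 57.3 and 54.1 CPM, and theca-like cells 46.9 CPM, of which 1 cell gave 22 of 41 UMIs.

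Igfbp4 had 352, 64.3 and 121 CPM in granulosa-like cells (534, 126 and 201 UMIs), 884, 1275 and 458 CPM in stroma-like cells and 783, 1002 and 1069 CPM in endothelium-like cells. Granulosa-like cells were below stroma-like cells at every age, by 2.51-fold (2.28 to 2.77) at ED16.5, 19.8-fold (16.6 to 23.9) at PND7 and 3.78-fold (3.25 to 4.41) at PND14. At PND7 they were 5.48-fold lower (4.50 to 6.70) than at ED16.5, and at PND14 1 cell held 67 of their 201 UMIs. Stroma-like cells at PND14 were 2.78-fold lower (2.59 to 2.99) than at PND7, and endothelium-like cells then led with 2.34 times their level (2.12 to 2.57). Theca-like cells had 239 CPM, 1.91-fold (1.65 to 2.23) below stroma-like cells.

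Igfbp7 was highest in endothelium-like cells at each age, with 1260 CPM at ED16.5 and 4361 and 4306 CPM after birth. Stroma-like cells came next with 172, 1316 and 1979 CPM (323, 2829 and 4609 UMIs), 7.67-fold (6.83 to 8.63) higher at PND7 than at ED16.5 and 1.504-fold (1.44 to 1.58) higher at PND14 than at PND7. Theca-like cells at PND14 had 1673 CPM. Granulosa-like cells had 11.2, 39.3 and 239 CPM from 17, 77 and 396 UMIs, at PND14 6.08-fold (4.75 to 7.87) above PND7, and were the lowest of the 4 classes throughout. At PND7 their level was near that of erythroid-like cells, 41.3 CPM from 7 UMIs. At PND14, 9 cells rich in endothelium markers held 285 of the 396 UMIs, and without them the level was 82.4 CPM, less than 2-fold above PND7 (log2 ratio 0.91). Unnamed clusters 3 and 4 had 1095 and 1169 CPM at PND7, and 2272 and 2865 CPM at PND14, which put them just below stroma-like cells at PND7 and between stroma-like and endothelium-like cells at PND14.

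Igfbp6 had 44.1, 396 and 513 CPM in stroma-like cells (83, 851 and 1194 UMIs). The PND7 level was 8.97-fold (7.16 to 11.4) above ED16.5, the largest ratio of the 8 genes between ages in these cells, and PND14 was 1.30-fold (1.19 to 1.42) above PND7. Surface epithelium-like cells had 58.8, 469 and 1225 CPM, and at ED16.5 and PND7 the interval of their ratio to stroma-like cells included 1. Smooth muscle-like cells had 232 and 728 CPM at PND7 and PND14. Granulosa-like cells had 11.9, 22.9 and 45.8 CPM from 18, 45 and 76 UMIs, 17.2-fold (12.8 to 23.8) below stroma-like cells at PND7. In endothelium-like cells no UMI was counted at ED16.5, which allows up to 6.09 CPM (3 UMIs), and 4 and 23 UMIs were counted at PND7 and PND14.

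Igfbp3 was highest in endothelium-like cells with 219, 166 and 47.9 CPM over the ages, 3.47-fold (2.27 to 5.42) lower at PND14 than at PND7. At ED16.5, 1 of these cells held 43 of the 108 UMIs, and the others had 145 CPM. Surface epithelium-like cells had 132, 12.3 and 34.2 CPM, at ED16.5 2.83-fold (1.86 to 4.21) above stroma-like cells. Stroma-like cells had 46.8, 28.4 and 8.59 CPM. Few of them carried it: 1 stroma-like cell held 30 of 61 UMIs at PND7 and 1 held 9 of 20 at PND14, and without these cells the levels were 14.5 and 4.80 CPM, less than 2-fold apart on the (CPM + 10) scale. Granulosa-like cells had 14, 1 and 3 UMIs, 9.23, 0.510 and 1.81 CPM. At PND14 the interval of the endothelium-like over surface epithelium-like ratio, 0.685 to 3.09, included 1.

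Counted per comparison, 4 of the 8 genes were at least 2-fold apart in granulosa-like cells between PND7 and ED16.5, where 8.66% of 13081 genes were (3.39% higher, 5.27% lower): Igf1r and Igfbp7 were higher at PND7 and Igfbp4 and Igfbp5 lower. Of these, Igfbp7 at PND7 (39.3 CPM) was near the background level of erythroid-like cells (41.3 CPM from 7 UMIs). Igf1r and Igfbp4 passed 2-fold in 20 of 20 alternatives, Igfbp7 in 16 and Igfbp5 in 12. For Igfbp5 the log2 ratio was −0.13 in cells with under 40 stroma marker UMIs and 1.83 in cells with no endothelium marker UMI. The alternatives that change the fold or the low-count filter leave every log2 ratio as it is, so they could not fail here. Nor could the pseudocount of 1 CPM, which only moves a called ratio further from 1. Between PND14 and PND7 in the same class 3 were apart, against 2.49% of 12667 genes (1.29% higher, 1.2% lower), with Igfbp5 and Igfbp7 higher and Igf1 lower at PND14. Igfbp5 passed in 20 of 20 alternatives, while Igfbp7 did not in the cells with under 15 or with no endothelium marker UMIs, nor Igf1 in those with none (−0.93). In cells at or below the median endothelium marker share Igfbp7 did pass (71.7 against 28.4 CPM). Igfbp3, at 4 UMIs in all, was too low to be compared there. In stroma-like cells 5 were apart between PND7 and ED16.5, against 4.17% of 12650 genes (2.22% higher, 1.95% lower). Igf1, Igfbp6 and Igfbp7 were higher at PND7, and Igfbp2 and Igfbp5 lower. Between PND14 and PND7 in stroma-like cells Igfbp3, Igfbp4 and Igfbp5 were lower and none was higher, against 1.35% of 12630 genes (0.673% higher, 0.673% lower). Under TMM scaling Igfbp4 alone passed, with Igfbp3 at −0.98 and Igfbp5 at −0.96, and at Leiden resolution 0.5 Igfbp5 alone did. The Igfbp3 ratio also rests on the single PND7 cell that held 30 of its 61 UMIs. The endothelium-like sums, from 19 to 27 cells, had 3 of 7 compared genes apart between PND7 and ED16.5 (6.68% of 8559 genes, 4.9% higher and 1.79% lower). Igfbp5 and Igfbp7 were higher at PND7 and Igfbp2 lower. Without the 1 ED16.5 cell that held 18 of 29 Igfbp2 UMIs, the ED16.5 level was 24.6 CPM, against 19.8 CPM at PND7. Between PND14 and PND7, 2 of 8 were apart (3.63% of 9362 genes, 2.68% higher and 0.951% lower), with Igfbp6 higher and Igfbp3 lower. Taken as the mean over cells, the Igfbp2, Igfbp5 and Igfbp6 calls did not pass, with log2 ratios of −0.90, 0.85 and 0.72.

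Between classes of 1 library, 6 of the 8 genes were apart between granulosa-like and stroma-like cells at ED16.5, where 11.4% of 12974 genes were (7.99% higher, 3.38% lower). Igfbp2 was higher in granulosa-like cells and Igfbp3, Igfbp4, Igfbp5, Igfbp6 and Igfbp7 were lower. Igfbp3 passed 2-fold in 15 of 18 alternatives and Igfbp6 in 16, with log2 ratios that went to −0.58 and −0.90. At PND7 all 8 were apart (14.6% of 13033 genes, 8.32% higher and 6.27% lower), with Igf1r and Igfbp2 higher and the other 6 lower in granulosa-like cells. Igfbp5, at a log2 ratio of −1.02, passed in 15 of 20 alternatives and was at −0.18 in cells with no endothelium marker UMI. At PND14 it was 7 (11.9% of 12800 genes, 6.82% higher and 5.05% lower), with Igf1r, Igfbp2 and Igfbp5 higher and Igf1, Igfbp4, Igfbp6 and Igfbp7 lower. Igf1r passed in 17 of 20 alternatives, with a lowest log2 ratio of 0.94. Theca-like cells against stroma-like cells at PND14 had 5 apart (12.6% of 11939 genes, 6.42% higher and 6.16% lower), Igf1r and Igfbp2 higher and Igf1, Igfbp5 and Igfbp6 lower. There Igf1r passed in 17 of 20 alternatives, with a lowest log2 ratio of 0.73. The other calls between classes passed in each alternative. The comparisons with a shared library or class sum are not independent of each other. The median log2 ratio of the 8 genes was −1.31, −1.501 and −1.22 between granulosa-like and stroma-like cells at the 3 ages, beside medians of 0.19, 0.10 and 0.13 over all compared genes.

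**Figure D2:**
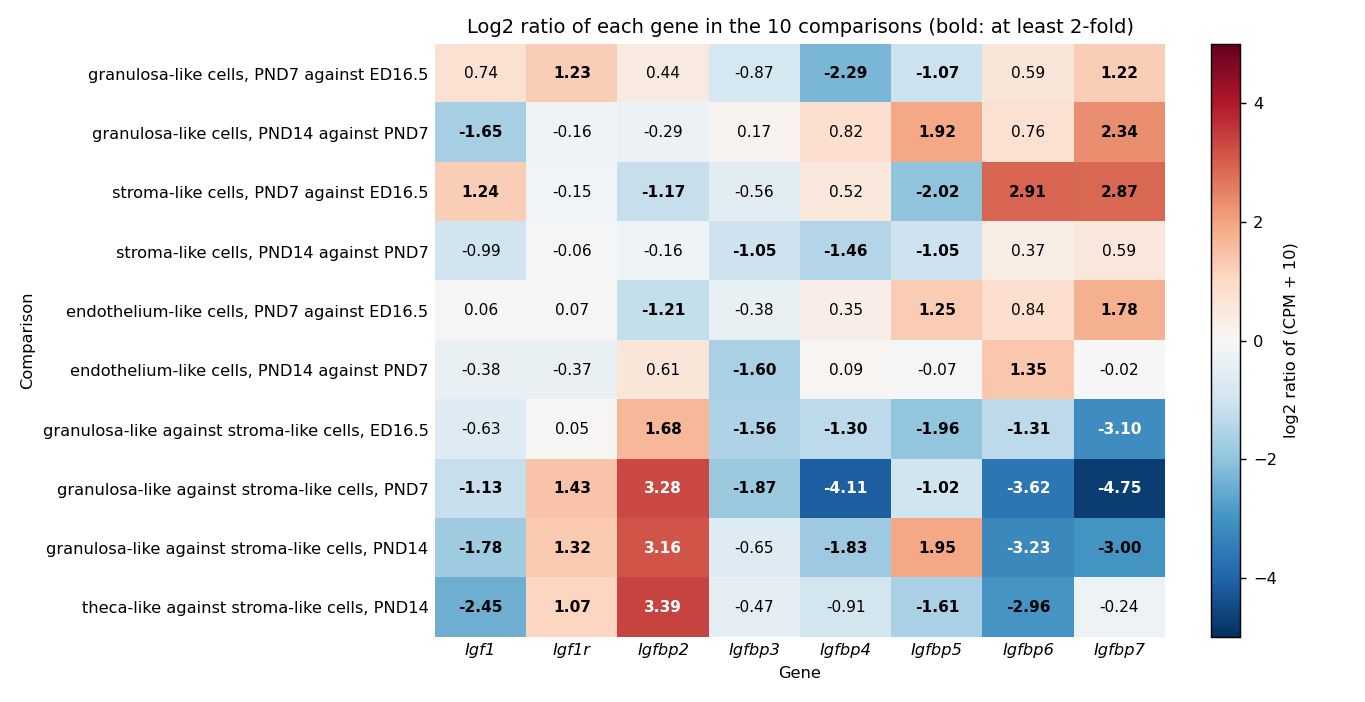
Log2 ratio of (CPM + 10) of each gene (columns) in the 10 comparisons (one per line), later age or first-named class on top of the ratio; red is higher, blue lower, and bold values are at least 2-fold apart. Igfbp4 and Igfbp7 in granulosa-like against stroma-like cells at PND7 hold the lowest values, −4.11 and −4.75, and Igfbp2 the highest of that comparison, 3.28.

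The sum of the 6 binding protein genes was smaller in granulosa-like cells, at 862, 454 and 1198 CPM, than in stroma-like cells, at 2619, 3370.3 and 3127 CPM, and its make-up differed between ages in both. These are shares of 3′ UMIs, in which each captured mRNA counts once whatever its length, and capture can differ between genes. In stroma-like cells Igfbp5 held 55.1% of the binding protein UMIs at ED16.5 and 10.3% and 5.23% after birth, while Igfbp7 held 6.55%, 39.0% and 63.3%. In granulosa-like cells the largest shares were those of Igfbp5 with 42.0% and Igfbp4 with 40.8% at ED16.5, Igfbp5 with 36.9% and Igfbp2 with 35.2% at PND7, and Igfbp5 with 55.2% at PND14. Igfbp7 took 53.9%, 77.7% and 77.6% in endothelium-like cells and 77.0% in theca-like cells.

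**Figure D3:**
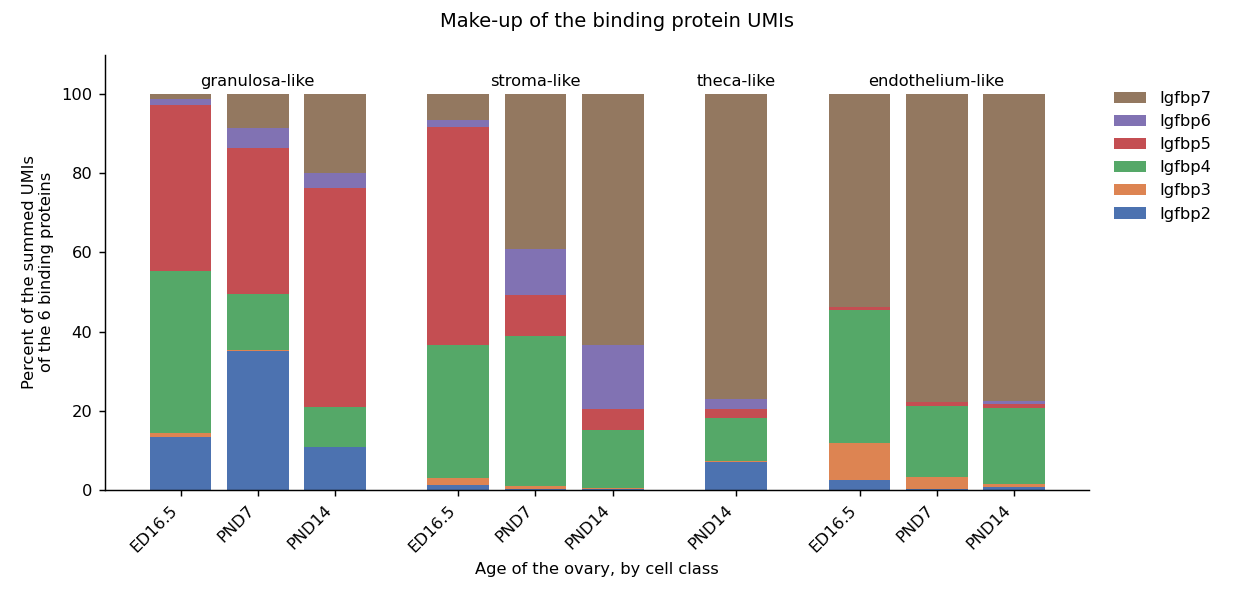
Share (percent) of each binding protein gene in the summed UMIs of the 6 genes, by class and age, from 1 library per age. The stroma-like bars pass from Igfbp5 (55.1% at ED16.5) to Igfbp7 (63.3% at PND14), and the granulosa-like bar at PND14 is mostly Igfbp5 (55.2%).

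A CPM of a class sum cannot tell fewer positive cells from less RNA per cell, so the share of cells with a UMI was read after each cell was thinned to 5000 UMIs, which kept every cell. Erythroid-like cells served as the background, on the assumption, not tested, that they lack these genes. Their median depths were 15792, 10227 and 16550 UMIs, against 15876, 17833 and 12496 UMIs for granulosa-like cells. Igfbp5 was seen in 48.7%, 35.2% and 75.5% of thinned granulosa-like cells (75.0%, 55.7% and 89.4% unthinned) and in 4.86%, 0% and 0% of thinned erythroid-like cells, of which there were 144, 13 and 9. Igf1r was seen in 31.6%, 55.7% and 57.4% of granulosa-like cells (65.8%, 88.6% and 84.0% unthinned), against 4.17%, 0% and 0% of erythroid-like cells. Igfbp4 was seen in 78.9%, 18.2% and 21.3% of them (98.7%, 59.1% and 36.2% unthinned), against 4.86%, 7.69% and 0%. Igf1 was seen in 23.7%, 37.5% and 12.8% of them (56.6%, 64.8% and 31.9% unthinned), against 0% of erythroid-like cells at each age. With only 13 and 9 erythroid-like cells after birth, the background shares have wide intervals. The Igfbp4 shares at PND7 and PND14 and the Igf1 share at PND14 thus cannot be told from the background on shares alone.

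For the remaining binding proteins the shares differed most in stroma-like cells: Igfbp6 was seen in 21.2%, 78.0% and 78.0% of thinned stroma-like cells (40.4%, 89.8% and 87.6% unthinned) and Igfbp7 in 47.1%, 99.0% and 99.5% (72.1%, 100% and 99.5% unthinned). Igfbp5 in stroma-like cells was seen in 91.3%, 68.3% and 39.9% (95.2%, 77.6% and 52.8% unthinned). Erythroid-like cells had Igfbp6 in 0.694%, 7.69% and 0% and Igfbp7 in 0.694%, 15.4% and 11.1% of thinned cells. The Igfbp7 share of granulosa-like cells at PND7, 7.95% (54.5% unthinned), was below that background, which rests on only 13 erythroid-like cells, and is not read as expression. At PND14 it was 37.2% (60.6% unthinned), against 11.1% of only 9 erythroid-like cells (interval up to 48.2%), so it cannot be told from the background on shares alone.

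**Figure D4:**
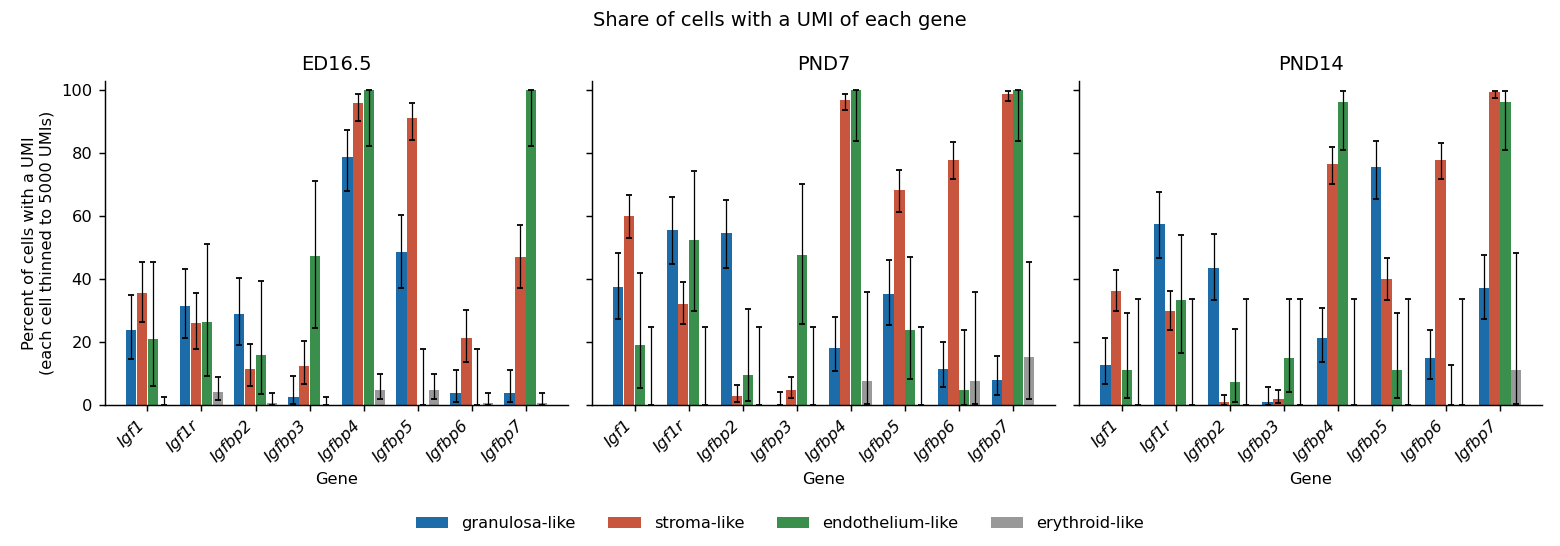
Percent of cells with at least 1 UMI of each gene after thinning each cell to 5000 UMIs, in granulosa-like, stroma-like, endothelium-like and erythroid-like cells at each age, with exact binomial 95% intervals. The granulosa-like bar of Igfbp5 is tallest at PND14 (75.5%), and Igfbp4 in granulosa-like cells is below stroma-like cells at each age.

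Markers of other classes were counted in the same granulosa-like cells. Endothelium markers (15 genes) came to 144, 113 and 382 CPM over the ages, with 12, 14 and 15 of 15 detected (Flt1, Sox17 and Sox18 were at 0 at ED16.5 and Tie1 at PND7), against 5912, 6327 and 5919 CPM in endothelium-like cells. Ramp2 alone gave 76.4, 72.4 and 69.3 CPM of these sums, so at ED16.5 and PND7 the sum was mostly Ramp2. At PND14, 9 of the 94 granulosa-like cells had 15 or more endothelium marker UMIs, against 0 of 88 at PND7 and 1 of 76 at ED16.5. These 9 cells, with a median of 33321 UMIs, held 285 of the 396 Igfbp7 UMIs, 141 of the 201 Igfbp4 UMIs and 269 of the 1097 Igfbp5 UMIs. Without them granulosa-like cells at PND14 had 82.4 CPM of Igfbp7, 44.5 CPM of Igfbp4 and 615 CPM of Igfbp5. With cells limited in this way at both ages, the PND14 over PND7 log2 ratio was 0.91 for Igfbp7, no longer 2-fold (2.34 in all cells), −0.45 for Igfbp4 (0.82 in all cells) and 1.82 for Igfbp5 (1.92 in all cells). The number of genes apart was then 2 between PND14 and PND7 and 3 between PND7 and ED16.5. The high PND14 level of Igfbp5 in granulosa-like cells was thus present without these cells, while the Igfbp7 and Igfbp4 levels were lower. Stroma markers overlapped with this group. At PND14, 6 of the 94 cells had 40 or more stroma marker UMIs, and most of the 6 were among the 9 cells. They held 205 of the 396 Igfbp7 UMIs and 116 of the 201 Igfbp4 UMIs, and the others had 133 and 59.1 CPM. Which marker set goes with these UMIs was not tested.

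The 12 stroma markers, all of which were detected at each age, summed to 1033, 382 and 613 CPM in granulosa-like cells. At ED16.5, 10 of the 76 granulosa-like cells had 40 or more stroma marker UMIs and held 323 of the 550 Igfbp5 UMIs. The other 66 cells had 186 CPM of Igfbp5. Cells under this limit had 169 CPM at PND7 and 675 CPM at PND14, and the PND7 over ED16.5 log2 ratio was then −0.13, no longer 2-fold, against −1.07 in all cells, which left 3 genes apart between these ages. Over granulosa-like cells at or below the median stroma marker share, Igfbp5 was at 190.1, 105 and 715 CPM, and Igfbp4 at 309.8, 43.3 and 72.6 CPM. The level of Igfbp5 at PND14 and the lower level of Igfbp4 at PND7 than at ED16.5 were thus present in the cells with fewest stroma markers.

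**Figure D5:**
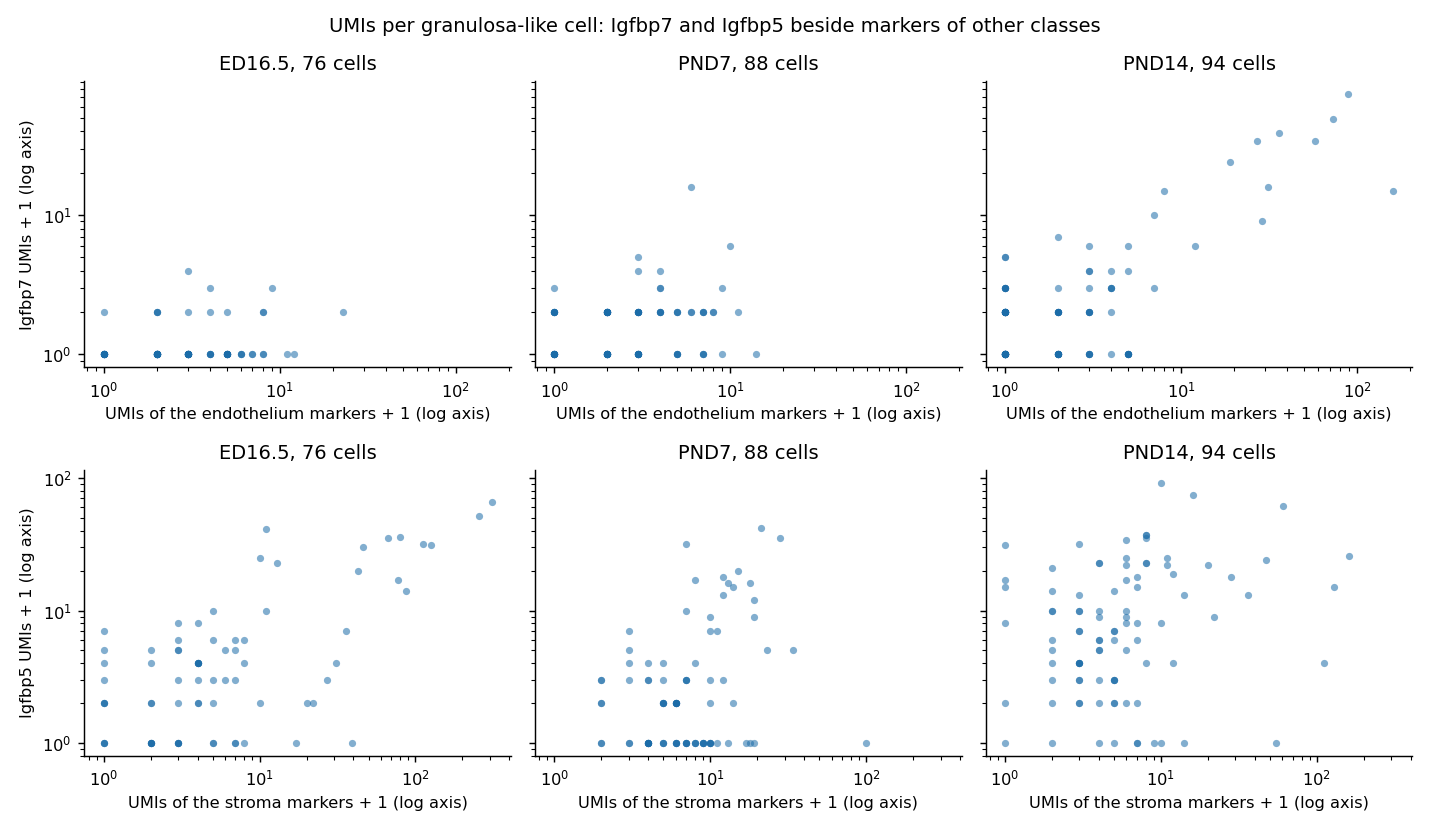
UMIs per granulosa-like cell at each age (both axes are UMIs + 1 on log scales): Igfbp7 against the summed endothelium markers (top) and Igfbp5 against the summed stroma markers (bottom), 1 point per cell. At PND14 the cells with most Igfbp7 (up to 73 UMIs) have many endothelium marker UMIs, but the orders differ. The PND14 cell with most endothelium marker UMIs (159) has 14 Igfbp7 UMIs. At ED16.5 most cells with over 40 stroma marker UMIs have many Igfbp5 UMIs.

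The theca-like cells of PND14 expressed all 12 theca markers at a summed 17185 CPM, and also held 17 of 20 granulosa markers at 2698 CPM (Fst, Fshr and Cyp19a1 were at 0) and the 12 stroma markers at 1586 CPM. Beside these values, their Igf1r was 2.25-fold (1.79 to 2.83) and their Igfbp2 27.5-fold (15.5 to 52.9) above stroma-like cells, while Igf1 was 8.49-fold (4.89 to 16.1), Igfbp6 8.96-fold (6.75 to 12.1) and Igfbp5 3.49-fold (2.52 to 4.94) below. The part of granulosa transcripts in the theca-like Igfbp2 and Igf1r levels was not tested. In endothelium-like cells the stroma markers summed to 296, 684 and 1148 CPM over the ages, and their part in the endothelium-like Igfbp6 and Igfbp5 levels was not tested.

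Igf2, the other ligand, was an embryonic gene in these libraries. It had 203, 6 and 0 UMIs in the whole libraries, and in granulosa-like cells 62.6 CPM (95 UMIs) at ED16.5 and none at PND7 or PND14, at least 40.9-fold lower at PND7 when set against 3 UMIs. Stroma-like cells had 28.7 CPM at ED16.5 and 1.40 and 0 CPM after birth. Igf2r, whose product takes up IGF2, had 50.1, 35.7 and 32.0 CPM in granulosa-like cells, and Insr, the insulin receptor gene, 18.5, 20.4 and 39.8 CPM. Igfbp1 was counted in 1, 1 and 0 UMIs per library.

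Further genes of the pathway came from 7 lists with 77 genes: other ligands and receptors, other binding proteins and relatives, binding protein proteases and their inhibitors, receptor adaptors, the PI3K, AKT and MTOR pathway, IGF2 mRNA binding proteins and the growth hormone axis. Of the proteases and inhibitors, 8 of 13 were compared in granulosa-like cells between PND7 and ED16.5, with 1 higher and 1 lower, beside 8.66% of all genes apart, so counts of 1 or 2 genes in a list of this size are near the background. The higher one was Htra1, a secreted serine protease that cleaves binding proteins, with 316 CPM at PND7 against 25.0 CPM at ED16.5, a ratio of 12.6 (9.09 to 18.0). Htra1 was also higher at PND7 in stroma-like cells (296 against 129 CPM) and in endothelium-like cells (96.8 against 8.11 CPM). Of the growth hormone axis 7 of 7 were compared in granulosa-like cells and 1 was apart. It was Socs2, a feedback inhibitor of growth hormone signalling, with 497 CPM at PND7 against 48.1 CPM at ED16.5 in granulosa-like cells and 123 against 31.3 CPM in stroma-like cells. In endothelium-like cells, where 6.68% of all genes were apart, 3 of 5 genes of that list were higher at PND7, led by Socs3 with 285 against 42.6 CPM.

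Among the PI3K, AKT and MTOR genes 23 of 24 were compared in granulosa-like cells, and 1 was higher and 2 were lower at PND7 than at ED16.5, beside 8.66% of all genes apart. Foxo1, a transcription factor that AKT keeps out of the nucleus, had 117 CPM at PND7 against 24.4 CPM at ED16.5, and 249 CPM at PND14, 2.13-fold (1.81 to 2.52) above PND7. Pik3r3, a regulatory subunit of PI3K, had 6.12 CPM at PND7 against 54.7 CPM at ED16.5. Of the receptor adaptors 12 of 14 were compared and 1 was apart, which is near that share. It was Grb10, an inhibitor of the receptor's signal, with 13.3 CPM at PND7 against 69.2 CPM at ED16.5. In stroma-like cells, where 4.17% of all genes were apart, the adaptor Grb14 was the 1 apart of 12, with 84.2 CPM at PND7 against 25.0 CPM at ED16.5. Igf2bp2, which binds Igf2 mRNA, had 49.0 CPM at PND7 against 109 CPM at ED16.5 in granulosa-like cells, and 2 of the 3 genes of its list were lower there. Kazald1, a relative of the binding proteins, had 285 CPM at PND7 against 58.7 CPM at ED16.5 in granulosa-like cells but 14.9 against 62.2 CPM in stroma-like cells. The difference between these 2 was not tested.

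Between PND14 and PND7, where 2.49% of all genes in granulosa-like and 1.35% in stroma-like cells were apart, 5 listed genes passed in granulosa-like cells and 1 in stroma-like cells. In granulosa-like cells the serine protease gene Prss23 had 57.9 against 14.8 CPM and Kazald1 123 against 285 CPM, and Prss23 in endothelium-like cells had 100.4 against 23.7 CPM. The stroma-like one was Stc2, an inhibitor of the protease PAPP-A, with 32 UMIs at PND14 against 4 at PND7. It has fewer UMIs than the naming rule asks and was named after its values were seen. The list medians of the log2 ratio between PND7 and ED16.5 in granulosa-like cells ran from −1.02 for the 3 IGF2 mRNA binding proteins to 0.09 for the binding protein relatives, beside −0.13 over all compared genes.

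The pattern of each gene over the 20 class sums with at least 10 cells was set beside that of all other genes. The highest Pearson correlation on the log2 (CPM + 10) scale was with Ikbip for Igf1 (0.88), Hdlbp for Igf1r (0.93), Plxnb1 for Igfbp2 (0.93), Spry4 for Igfbp3 (0.89), Sh3bp5 for Igfbp4 (0.93), Adamts19 for Igfbp5 (0.91), Rarres2 for Igfbp6 (0.94) and Mef2c for Igfbp7 (0.93). Sums of 1 library share its depth and ambient RNA, and the best of many genes is named, so these are descriptions. Among the 8 genes the highest value was 0.73, between Igfbp4 and Igfbp7, and the lowest −0.29, between Igfbp2 and Igfbp7. Igfbp2 and Igfbp5, the neighbours on chromosome 1, had 0.58.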

How the data were processed

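The deposited tables are unnormalized UMI counts for each gene in each barcode, which the authors made with Cell Ranger 2.1.1 on GRCm38, per the submitters' processing notes. Not given in the sources used here are the annotation and the way barcodes were called. Of 1554 barcodes, 1548 had at least 200 genes and at most 20% mitochondrial UMIs. All libraries came from 1 HiSeq lane, per the labels. Of the 53465 gene identifiers 50604 matched GENCODE M21 with their version and 53274 without it.

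Kept cells were clustered together with scanpy 1.11.5, leidenalg 0.10.2 and scikit-learn 1.9.0 on numpy 2.4.6 in Python 3.11.15: counts scaled to 10000 per cell and logged, 2000 variable genes without the 8 genes and the 77 listed pathway genes, 30 components, 15 neighbours, Leiden resolution 1.0. A cluster took a class name where it had more markers of that class (of 125 in 9 classes) than of any other at least 2-fold above the other cells of the library that holds most of it. At least 3 were needed, and no other class could lead its top 10 genes. It also needed a marker of the class among those 10 genes, or a share of at least 0.5 of the class list 2-fold up. Clusters 3 and 17 failed on this last condition only. The naming rule was set after the clusters were seen. Doublets were not removed: Scrublet called 1, 3 and 3 cells.

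Class sums were scaled to CPM and ratios taken on log2(CPM + 10). Intervals came from scipy 1.17.1, and TMM scaling, an alternative, from edgeR 4.0.16 in R 4.3.3. Other alternatives covered clustering, gating, cell filters, pseudocount, low-count filter, fold, thinning and subsets of granulosa-like cells. The summing and calling steps were tested on simulated data. Named pathway genes are the largest in each direction per list and comparison among those at least 2-fold apart with at least 50 UMIs and an interval that leaves out 1, plus Igf2, Igf2r and Insr. The members and gene lists were chosen with earlier results of these data known.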

Additional observations from a re-analysis of the deposited data

Results flagged for a closer look

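Igfbp5 was the one gene of the 8 that was at least 2-fold apart in opposite directions in 2 classes over the same ages, in 3 pairs of classes. Between PND7 and ED16.5 it was lower in granulosa-like cells (log2 ratio −1.07) and higher in endothelium-like cells (1.25), a difference of −2.32, and lower in stroma-like cells (−2.02), a difference from endothelium-like cells of −3.27. Between PND14 and PND7 it was higher in granulosa-like cells (1.92) and lower in stroma-like cells (−1.05), a difference of 2.97. With 1 library per age these differences were not tested. The endothelium-like ratio rests on 29 UMIs at PND7 and 9 at ED16.5. The granulosa-like ratio of PND7 over ED16.5 was −0.13 in cells with under 40 stroma marker UMIs, and the granulosa-like ratio of PND14 over PND7 was at least 2-fold in 20 of 20 alternatives (1.22 to 2.65).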

How the results depend on the processing

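No paired analysis was possible because each age has 1 library, and for the same reason no replicate could be left out. Depth limits Igfbp3 in granulosa-like cells (18 UMIs in all) and Igfbp2, Igfbp5 and Igfbp6 in the endothelium-like sums (19 to 27 cells). Gating each cell on its own, and naming clusters against all 3 libraries, gave no stroma-like class at ED16.5.

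Over all comparisons and alternatives, 187 of 196 counts of genes apart stayed within 1.5 times, and 1344 of 1568 log2 ratios stayed within the counting interval of the reported ratio. Part of these could not move. The fold and low-count filter alternatives leave every log2 ratio as it is. The stroma-marker and endothelium-marker subsets of granulosa-like cells leave the comparisons without that class as they are. So does removing the called doublets, none of which was stroma-like, theca-like or endothelium-like. A pseudocount of 1 CPM moves a log2 ratio only toward the ratio without a pseudocount, which lies inside the interval. The counts that moved were these. A fold of 1.5 gave 7 for granulosa-like cells between PND7 and ED16.5, 5 between PND14 and PND7, and 5 for stroma-like cells between PND14 and PND7. The granulosa-like cells at or below the median endothelium marker share gave 2 between PND7 and ED16.5, and those with no endothelium marker UMI gave 1 between PND14 and PND7. Stroma-like cells between PND14 and PND7 had 1 gene apart at Leiden resolution 0.5 and 1 under TMM. The mean over cells gave 1 for endothelium-like cells in each of the 2 age comparisons. Of the ratios called apart, 2 turned their sign: for Igfbp5 in granulosa-like cells between PND7 and ED16.5, at 1.83 in the 17 and 12 cells with no endothelium marker UMI, and for Igfbp3 in stroma-like cells between PND14 and PND7, at 0.38 at resolution 0.5. The uncalled Igfbp4 ratio in granulosa-like cells between PND14 and PND7 (0.82) was −0.45 both with under 15 endothelium marker UMIs and at or below the median endothelium marker share. The cause was not tested.

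In granulosa-like cells between PND7 and ED16.5, Igf1r and Igfbp4 passed 2-fold in 20 of 20 alternatives, Igfbp7 in 16 and Igfbp5 in 12. The 5 stroma-like calls between PND7 and ED16.5 passed in 18 of 18. Some of these passes were fixed in advance. The fold and low-count filter alternatives and the marker subsets of granulosa-like cells leave the stroma-like ratios as they are. Endothelium-marker and stroma-marker limits on cells were chosen after seeing the data. Thinning to 2000 UMIs moved 45 of 80 shares.

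TMM shifted the median log2 ratio of all genes by −0.13 between granulosa-like and stroma-like cells at ED16.5, with 709 genes higher and 507 lower against 1037 and 438, and by under 0.1 elsewhere. It gave 484 higher and 497 lower in granulosa-like cells between PND7 and ED16.5, against 444 and 689. Without mitochondrial, ribosomal protein and haemoglobin genes, stroma-like cells between these ages had 332 higher and 443 lower, against 281 and 247, and endothelium-like cells 477 and 287, against 419 and 153.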

Other observations

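Both large unnamed postnatal clusters carried these genes. Cluster 3, led by cell division genes and with 89 cells at PND7 and 51 at PND14, had 149 and 73.5 CPM of Igf1, 749 and 218 CPM of Igfbp4 and 196 and 37.7 CPM of Igfbp5 at these ages. Cluster 4, with 35 and 92 cells, had 173 and 46.8 CPM of Igf1, 702 and 250 CPM of Igfbp4 and 215 and 40.8 CPM of Igfbp5. All 3 genes were lower in both clusters at PND14 than at PND7, while Igfbp7 was higher.

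Smooth muscle-like cells, 12 at PND7 and 28 at PND14, had no Igfbp2 UMI at either age, 580 and 237 CPM of Igfbp5 and 801 and 1637 CPM of Igfbp7. Immune-like cells had 469 and 485 CPM of Igfbp4 in 16 and 8 cells at these ages, and at PND7 the stroma markers in them summed to 36.1% of the stroma-like level. The part of these in the Igfbp4 level was not tested.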
